A study of Homo sapiens with 6 samples.

Results

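Messenger RNAs of the translation factors were examined in HCT116, a human colorectal carcinoma cell line. The set comprised every gene in the authors' deposited tables whose symbol marks it as an initiation factor (EIF1 to EIF6, without the eIF2 kinases), a factor of elongation (EEF1, EEF2) or termination (ETF1, GSPT1, GSPT2), a cytoplasmic poly(A)-binding protein (PABPC), a partner of these proteins (PAIP1, PAIP2) or a La-related protein (LARP). The rule selected 53 of the 7681 genes in the tables. It did not use their values, though the set was chosen with earlier results of these data known. The rule matched 86 protein-coding genes in the RefSeq gene table, so 33 of them were in neither deposited table.

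RNA was sequenced from 3 cultures labelled Rab27B KO, described as carrying a CRISPR/Cas9 deletion of the vesicle GTPase gene RAB27B, and from 3 cultures labelled wild type. All 6 were untreated HCT116 cells grown for 48 hours, and the labels do not say whether the knockout line is 1 clone. The authors deposited 1 table of genes higher and 1 of genes lower in the cultures labelled Rab27B KO. Both hold a log2 fold change, positive where the cultures labelled Rab27B KO were the higher ones, and a q-value below 0.05.

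The tables give no value per sample. The level of each gene, the spread between replicates and the depth of each sample are therefore unknown, and no standard error can be attached to a fold change. Why a gene is in neither table is unknown: it may have missed the threshold or not have been tested. In bulk RNA, fewer cells with a transcript and less of it per cell cannot be told apart.

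The targeted transcript went against its label: RAB27B was 36.7-fold higher in the cultures labelled Rab27B KO per the authors' deposited table. An edited gene can still be transcribed, and exchanged labels or an inverted ratio were not tested. If either applied, every higher or lower call given here would turn to the other side. Of 8 markers of colorectal epithelium 3 were listed higher and 3 lower, and their levels are unknown. The log2 fold changes were 0.61 for KRT8 and 0.47 for KRT18, but -1.15 for EPCAM and -1.15 for CDH1 per the authors' deposited table. Among leukocyte, fibroblast and endothelial markers, CD68 and COL3A1 were higher, at 1.81 and 1.77, and COL1A1 lower, at -0.40, per the authors' deposited table. The markers PTPRC, CD3E and PECAM1 were in neither table. The direction of all listed genes also varied between chromosomes, with 22.9% higher on chromosomes 4, 7, 13 and 15 combined and 55.4% elsewhere. These 4 chromosomes were singled out for their low shares in these same data, so the contrast is a description only.

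Translation initiation begins when eIF2, bound to GTP, brings the initiator transfer RNA to the small ribosomal subunit, and eIF2B reloads eIF2 with GTP for the next round. The eIF3 complex is a many-subunit scaffold on that small subunit, while eIF4F binds the cap of the messenger RNA through eIF4E, unwinds it with the helicase eIF4A and holds both on the scaffold eIF4G. The poly(A)-binding protein contacts eIF4G from the other end of the message. During elongation eEF1A delivers aminoacylated transfer RNA, and its exchange factors, the other eEF1 subunits, recharge it with GTP. In many cancers, including colorectal cancer, the eIF4F step is studied as a point of control by mTORC1, whose substrates, the 4E-BPs, sequester eIF4E.

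Many messages of the translation apparatus start with a C and an unbroken run of pyrimidines, the terminal oligopyrimidine (TOP) tract through which mTORC1 and LARP1 control their translation. The start sites of some members are shown for this reason. Each line gives 30 bases of the sense strand from the RefSeq promoter table (GRCh38.p14), with 10 bases before the annotated start. Capitals mark a C followed by at least 4 pyrimidines, with the C within 5 bases of the annotated start.
EEF1A1 (chr6:73521013-73521042, minus strand): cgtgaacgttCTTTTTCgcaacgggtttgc
EIF4A2 (chr3:186783567-186783596, plus strand): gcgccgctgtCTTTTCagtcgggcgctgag
EIF3F (chr11:7987327-7987356, plus strand): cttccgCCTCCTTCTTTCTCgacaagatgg
EIF2S3 (chrX:24054946-24054975, plus strand): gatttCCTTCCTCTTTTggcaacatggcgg
EIF3K (chr19:38619178-38619207, plus strand): tttccaccaCCTCTTCCTgttcccgtcctt
EIF4A1 (chr17:7572815-7572844, plus strand): ggcactccgccctagtttctaaggatcatg

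Of the 6 genes shown, EEF1A1, EIF4A2, EIF3F and EIF2S3 were lower and hold a tract, EIF3K was higher and holds one, and EIF4A1 was higher and has none in this window. The 6 are examples only. Lower members without a tract, among them EIF3B, EIF4E and EIF4G1, are not shown. Among members with a promoter in that table, 5 of 20 higher ones (25.0%) and 8 of 21 lower ones (38.1%) hold a tract. The tract stood at 22.1% of all 15843 protein-coding promoters in the table and at 75.7% of 70 ribosomal protein promoters. Among all listed genes it stood at 20.5% of the higher and 24.2% of the lower ones. The annotated start is 1 position per gene, and a match or its absence describes these letters only.

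Translation factor genes were listed in near equal numbers on both sides, mostly with small changes. The authors' deposited tables held 26 of the 53 as higher and 27 as lower in the cultures labelled Rab27B KO. That is 49.1% higher, against 50.7% of all listed genes, and 50.9% lower, against 49.3%. The members made up 61.6% of the 86 protein-coding genes that match the rule, whereas 37.9% of all RefSeq protein-coding genes were listed, a share whose base includes genes silent in these cells. The RefSeq table also holds 188 pseudogenes that match the rule, 50 of them copies of EEF1A1, and none was listed. Reads of a gene with such copies may be shared with them. The median log2 fold change of the members was -0.10, against 0.12 over all listed genes. With near equal numbers on both sides, each of these medians shows mainly which side holds more genes.

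Sizes were modest. The median absolute log2 fold change was 0.27 for the members and 0.41 for all listed genes, and 42 of the 53 members lay below 0.41. A log2 fold change of at least 0.5 in either direction was listed for 8 members (15.1%), against 38.7% of all listed genes. EIF3CL alone reached 1. A q-value below 1e-10 was held by 17 members (32.1%), against 30.8% of all listed genes. Of these 17 members 11 were lower, but the lower share among all listed genes below 1e-10 was not computed. These q-values also depend on how abundant and how long a transcript is.

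**Figure D1:**
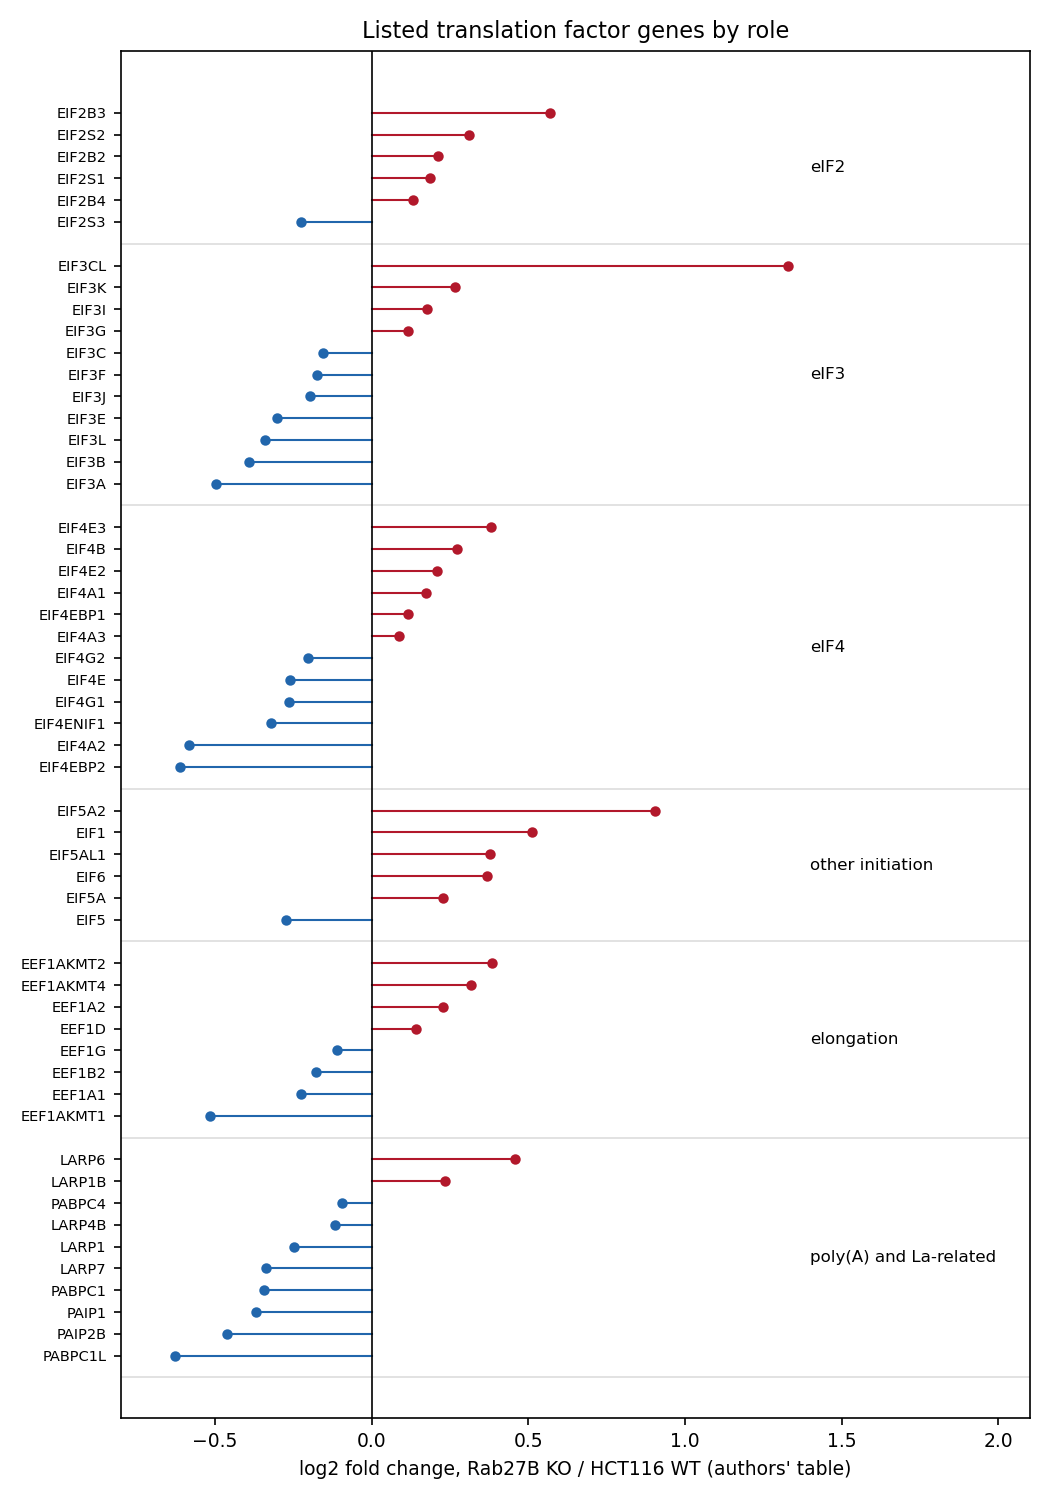
Log2 fold change (x axis), Rab27B KO over wild type, for the 53 listed translation factor genes (y axis), grouped by role, red where higher and blue where lower in the cultures labelled Rab27B KO. Points are the authors' single value per gene, without an error; most lie within 0.5 of 0, and EIF3CL stands alone above 1.

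Most listed genes of the eIF2 group were higher and most of the eIF3 group lower, while the eIF4 and elongation groups were even, as far as the direction of the deposited ratio holds. Over all listed genes 50.7% were higher and 49.3% lower. The eIF2 group had 5 higher and 1 lower of 11 protein-coding genes, and its listed members had a median log2 fold change of 0.20. The eIF3 group had 4 higher and 7 lower of 14, with a median of -0.17. In the eIF4 group 6 were higher and 6 lower of 16, with a median of -0.06, and among 14 elongation genes 4 were higher and 4 lower, with a median of 0.02. These 2 medians fall between the sides, where the groups have no gene. The median absolute log2 fold changes were 0.26 for the eIF4 and 0.23 for the elongation group. The poly(A) and La-related genes had 2 higher and 8 lower of 17, with a median of -0.29. The remaining genes with initiation factor symbols had 5 higher and 1 lower of 11, with a median of 0.37. Of these 5, 3 were eIF5A genes, placed here by symbol though eIF5A helps the ribosome past difficult peptide bonds. The splits of this group and of the elongation group therefore depend on grouping by symbol. No test of these splits was made, and with 6 to 12 listed genes a group each split rests on few genes.

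**Figure D2:**
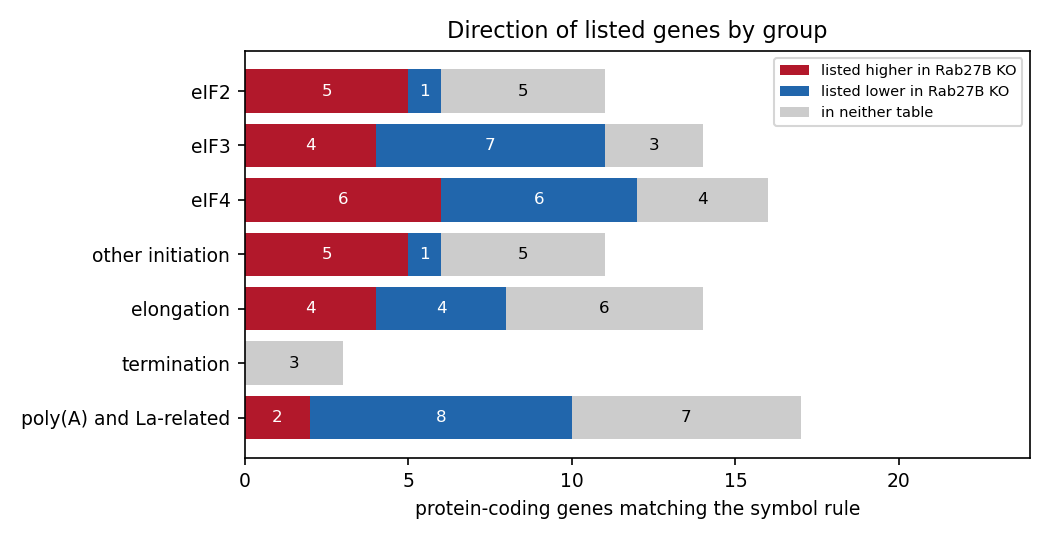
Number of protein-coding genes matching the symbol rule (x axis) in each group (y axis), divided into those listed higher in the cultures labelled Rab27B KO (red), listed lower (blue) and in neither table (grey). The eIF2 and other initiation groups hold 5 higher and 1 lower gene each, and the poly(A) and La-related group 2 higher and 8 lower.

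The genes of eIF2 and its exchange factor were mostly higher. EIF2S1 and EIF2S2, which encode the alpha subunit that stress kinases phosphorylate and the beta subunit, had log2 fold changes of 0.19 (q = 0.000815) and 0.31 (q = 6.3e-13) per the authors' deposited table. EIF2S3, the gene of the gamma subunit that binds GTP and the initiator transfer RNA, lies on the X chromosome and was lower, at -0.23 (q = 1.03e-06) per the authors' deposited table. The 3 subunits of 1 complex were thus not listed in 1 direction.

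Of the 5 eIF2B genes, 3 were higher and none was listed lower, where 50.7% of all listed genes were higher. This split of few genes was not tested. The catalytic-side subunit gene EIF2B3 (gamma) was 1.48-fold higher (q = 2.18e-05), the largest change in the eIF2 group, per the authors' deposited table. The regulatory subunit genes EIF2B2 (beta) and EIF2B4 (delta) stood at log2 fold changes of 0.21 (q = 0.000823) and 0.13 (q = 0.0409) per the authors' deposited table. EIF2B1 and EIF2B5, which encode the alpha and the catalytic epsilon subunit, were in neither table. Neither were EIF2A and EIF2D, which can deliver transfer RNA without eIF2, or the eIF2 gamma copy EIF2S3B.

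The eIF3 subunit genes were mostly lower, and the largest falls were in EIF3A and EIF3B. Of the 13 subunit genes EIF3A to EIF3M, 7 were lower, 3 were higher and 3 were in neither table. Of all listed genes 49.3% were lower, and this split was not tested. Without chromosomes 4, 7, 13 and 15 the eIF3 group, which includes EIF3CL, held 4 higher and 5 lower genes. EIF3A, the gene of the largest subunit and organiser of the complex (GRCh38.p14, chromosome 10, 119033670 to 119080817), was 1.41-fold lower with q = 8.74e-46 per the authors' deposited table. EIF3B, which carries a scaffold for 2 small subunits, followed at 1.31-fold lower (q = 9.86e-28) per the authors' deposited table. EIF3B lies on chromosome 7, where 33.0% of all listed genes were higher.

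EIF3L and EIF3E, subunits of the PCI/MPN core that gives the complex its shape, were 1.27-fold (q = 3.64e-21) and 1.23-fold (q = 1.85e-15) lower per the authors' deposited table. EIF3F, EIF3C and the loosely bound EIF3J had log2 fold changes of -0.17, -0.16 and -0.20 per the authors' deposited table, EIF3J with q = 0.0266. EIF3J lies on chromosome 15, where 19.8% of all listed genes were higher. The 8 genes of that core had 5 lower members (EIF3A, EIF3C, EIF3E, EIF3F, EIF3L) and 1 higher member, EIF3K. Of all listed genes 49.3% were lower, and so few genes were not tested. EIF3H and EIF3M of the core, and the cap-contacting subunit gene EIF3D, were in neither table.

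EIF3K was 1.20-fold higher (q = 9.92e-09) per the authors' deposited table. The genes of the 2 small subunits that bind EIF3B were higher as well, with log2 fold changes of 0.18 for EIF3I (q = 1.91e-05) and 0.12 for EIF3G (q = 0.0199) per the authors' deposited table. The module of EIF3B, EIF3G and EIF3I was therefore listed with 1 gene lower and 2 higher.

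EIF3CL had the largest change of all 53 genes, a log2 fold change of 1.33 (q = 1.21e-05) per the authors' deposited table. It is a copy of EIF3C on the same chromosome, 16, and the longest GENCODE release 29 coding sequences of both genes were identical over all 2742 aligned bases. Reads from one cannot be told from reads of the other over that stretch. The values of both genes in the authors' deposited table are uncertain for that reason.

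The eIF4 genes split evenly, and the split ran through the cap-binding complex itself. Among the eIF4F genes, the cap-binding protein gene EIF4E had a log2 fold change of -0.26 (q = 1e-05) and the scaffold gene EIF4G1 one of -0.26 (q = 1.23e-13) per the authors' deposited table. The helicase gene EIF4A1 was higher, at 0.17 (q = 1.03e-05), while its paralog EIF4A2 (GRCh38.p14, chromosome 3, 186783577 to 186789897) was lower at -0.58 (q = 1.75e-40) per the authors' deposited table. EIF4G3, a second scaffold gene, was in neither table. EIF4E lies on chromosome 4, where 16.8% of all listed genes were higher.

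Among the genes that act on eIF4E, the lowest was EIF4EBP2 (GRCh38.p14, chromosome 10, 70404145 to 70428618), a translational repressor, at 1.53-fold lower (q = 5.8e-44) per the authors' deposited table. EIF4EBP1, the best-known repressor of that family, stood on the other side at a log2 fold change of 0.12 (q = 0.0424), and EIF4EBP3 was not in the authors' deposited table. EIF4ENIF1, which binds eIF4E and links it to messenger RNA decay, was lower at -0.32 (q = 1.28e-06) per the authors' deposited table. Both the eIF4E gene and the gene of one of its repressors were thus lower.

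The other cap-binding genes were higher: EIF4E2, a cap-binding repressor, at 0.21 (q = 0.00485) and EIF4E3 at 0.38 (q = 0.00293) on the log2 scale per the authors' deposited table. The helicase cofactor gene EIF4B was 1.21-fold higher (q = 6.22e-17) per the authors' deposited table. EIF4A3, whose product sits on spliced exon junctions and is not an initiation factor, was at 0.09 (q = 0.0481), the largest q-value of the set, per the authors' deposited table. EIF4G2 (DAP5), which lacks the eIF4E site, had a log2 fold change of -0.20 (q = 3.41e-09) per the authors' deposited table. EIF4H and EIF4E1B were in neither table.

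The remaining genes with initiation factor symbols were mostly higher, and 3 of the 5 higher ones were eIF5A genes. EIF1, which guards start-codon choice, was 1.43-fold higher (q = 2.57e-41) per the authors' deposited table, the smallest q-value among the higher members. EIF6, which keeps the large ribosomal subunit free until it is needed, was 1.29-fold higher (q = 1.51e-18) per the authors' deposited table. EIF5, the gene of the factor that triggers GTP hydrolysis by eIF2, was the single lower gene of this group, with a log2 fold change of -0.27 (q = 2.44e-11) per the authors' deposited table. EIF1AX, EIF1AY, EIF1B, EIF1AD and the subunit-joining factor EIF5B were in neither table.

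All 3 listed genes of the eIF5A kind were higher, against 50.7% of all listed genes, and so few genes were not tested. The protein eIF5A carries the modified lysine hypusine and helps the ribosome past difficult peptide bonds. EIF5A2 (GRCh38.p14, chromosome 3, 170888418 to 170908637) was 1.87-fold higher (q = 2.59e-15) and EIF5A 1.17-fold higher (q = 2.92e-13) per the authors' deposited table. EIF5AL1 stood at a log2 fold change of 0.38 (q = 5.31e-05) per the authors' deposited table. The coding sequence of EIF5AL1 matched EIF5A at 460 of 465 aligned bases (98.9%), so reads may be shared between them, whereas EIF5A2 matched EIF5A at 72.1%. Of 9 genes that make hypusine or the diphthamide of eEF2, 2 were higher and 3 lower (60.0% lower, against 49.3% of all listed genes), with the hypusine enzyme DHPS at 0.23 (q = 8e-04) per the authors' deposited table.

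Among the elongation genes, the listed eEF1 subunit genes changed little and in both directions. EEF1A1 (GRCh38.p14, chromosome 6, 73515750 to 73521032), among the most abundant messages of most cells, had a log2 fold change of -0.23 (q = 4.04e-15) per the authors' deposited table. Its paralog EEF1A2, normally found in muscle and neurons, had one of 0.23 (q = 6.72e-08) per the authors' deposited table. EEF1B2 and EEF1G, which encode subunits of the exchange factor, were at -0.18 (q = 7.15e-07) and -0.11 (q = 0.000849), and the third, EEF1D, at 0.14 (q = 0.000348) per the authors' deposited table. EEF2, EEF2K, whose kinase inhibits eEF2, and EEF1E1 were in neither table.

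Of 5 genes of elongation factor methyltransferases, EEF1AKMT2 and EEF1AKMT4 were higher, at 0.38 and 0.32 on the log2 scale per the authors' deposited table. EEF1AKMT1 was lower, at -0.52 (q = 0.0114) per the authors' deposited table, and it lies on chromosome 13, where 13.5% of all listed genes were higher. EEF1AKMT3 and EEF2KMT were in neither table, and EEF1AKMT4 shares its locus with a readthrough gene, EEF1AKMT4-ECE2, so its reads may be shared. Without these enzymes the elongation group held 2 higher and 3 lower genes. The termination factor genes ETF1, GSPT1 and GSPT2 were in neither table, and the tables hold no unadjusted p-values to place them.

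The poly(A)-binding protein genes (3 listed of 8) and the genes of their partners (2 listed of 3) were lower wherever they were listed. Of all listed genes 49.3% were lower, and no test was made on so few genes. PABPC1, the main cytoplasmic form, was 1.27-fold lower (q = 6.57e-36) and PABPC4 1.07-fold lower (q = 0.00972) per the authors' deposited table. PABPC1L, known from oocytes, had the lowest value of the set, a log2 fold change of -0.63 (q = 1.71e-05) per the authors' deposited table. PAIP1, which promotes translation through PABPC1, was 1.29-fold lower (q = 1.86e-12), and PAIP2B, which inhibits PABPC1, 1.38-fold lower (q = 0.000875) per the authors' deposited table. PAIP2 and 5 further PABPC genes were in neither table.

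The La-related genes went both ways. LARP1, which binds the cap and the TOP tract, had a log2 fold change of -0.25 (q = 1.24e-09), and its paralog LARP1B one of 0.23 (q = 0.00687) per the authors' deposited table. LARP6, which binds collagen messages, was highest at 0.46 (q = 7.32e-10) per the authors' deposited table. LARP7, a protein of the 7SK complex in the nucleus, was at -0.34 (q = 7.38e-06) and LARP4B at -0.12 (q = 0.0337) per the authors' deposited table. LARP4, the paralog of LARP4B, was in neither table. LARP1B and LARP7 lie on chromosome 4 and LARP6 on chromosome 15, where 19.8% of all listed genes were higher, so LARP1B and LARP6 were higher on chromosomes where most listed genes were lower.

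Several pairs of paralogs stood on opposite sides of 0. The differences between log2 fold changes per the authors' deposited table were 0.76 between EIF4A1 and EIF4A2, 0.73 between EIF4EBP1 and EIF4EBP2, -0.45 between EEF1A1 and EEF1A2, and -0.48 between LARP1 and LARP1B. EIF4E differed from EIF4E2 by -0.47 and from EIF4E3 by -0.64 per the authors' deposited table. The coding sequences of these pairs were 55.8 to 78.2% identical, against 100% for EIF3C and EIF3CL. EIF5A and EIF5A2, EIF4G1 and EIF4G2, and PABPC1 and PABPC4 each stood on 1 side. The differences have no test, since the tables give no error, and the pairs were picked with their values known.

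**Figure D3:**
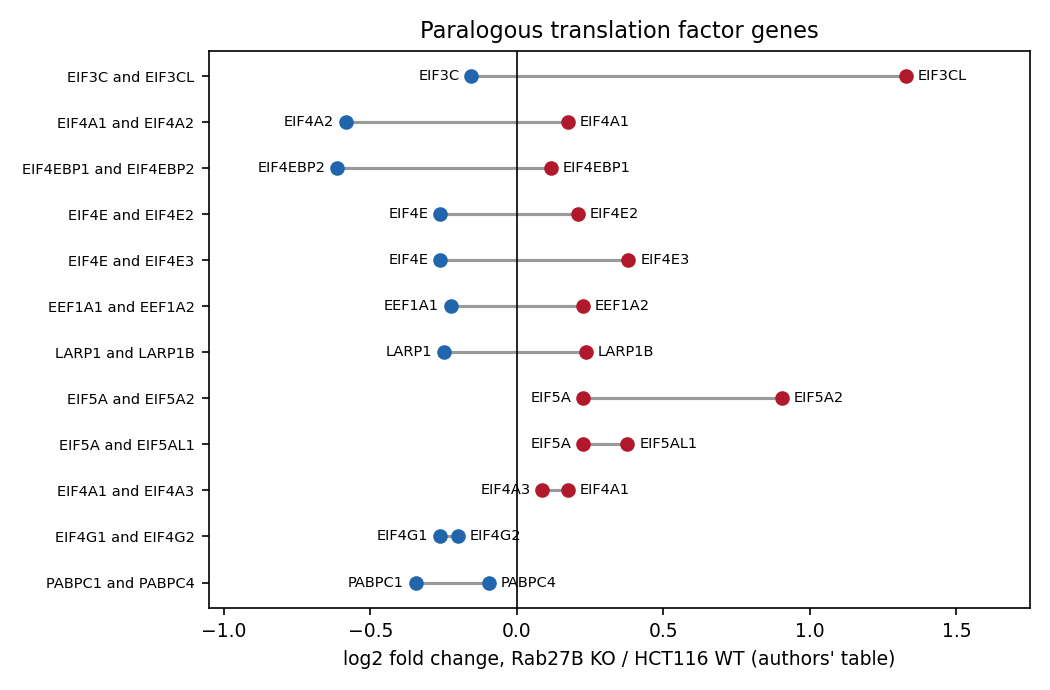
Log2 fold change (x axis), Rab27B KO over wild type, for pairs of paralogous translation factor genes (y axis), joined by a line; red is higher and blue lower in the cultures labelled Rab27B KO. The first 7 pairs lie on opposite sides of 0 and the other 5 on 1 side; EIF3C and EIF3CL share their coding sequence, so that pair is uncertain.

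Higher listed genes had shorter transcripts by median, among the members as among all listed genes. The longest annotated transcript was used, which need not be the one these cells express. The median length of the longest protein-coding transcript was 2172 nucleotides for the 26 higher and 3220 for the 27 lower members, against 2809 for all higher and 4286.5 for all lower genes. Of 17 members under 2000 nucleotides, 12 were higher (70.6%), against 73.7% of all listed genes of that size. Between 2000 and 4000 nucleotides 7 of 18 members were higher (38.9%), against 55.4% of all, and from 4000 upwards 7 of 18 (38.9%), against 35.9% of all.

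The eIF3 group showed the same arrangement, with a median of 1392.5 nucleotides for its 4 higher and 3145 for its 7 lower genes. In the elongation group the order was the other way, 1918.5 for the higher and 1310.5 for the lower genes. The part of transcript length in these splits was not tested. The 7 members on chromosomes 4, 7, 13 and 15, singled out for their low shares, comprised 2 higher (28.6%) and 5 lower genes. Of all listed genes there 22.9% were higher. The 46 members elsewhere comprised 24 higher (52.2%) and 22 lower, against 55.4% of all listed genes elsewhere.

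**Figure D4:**
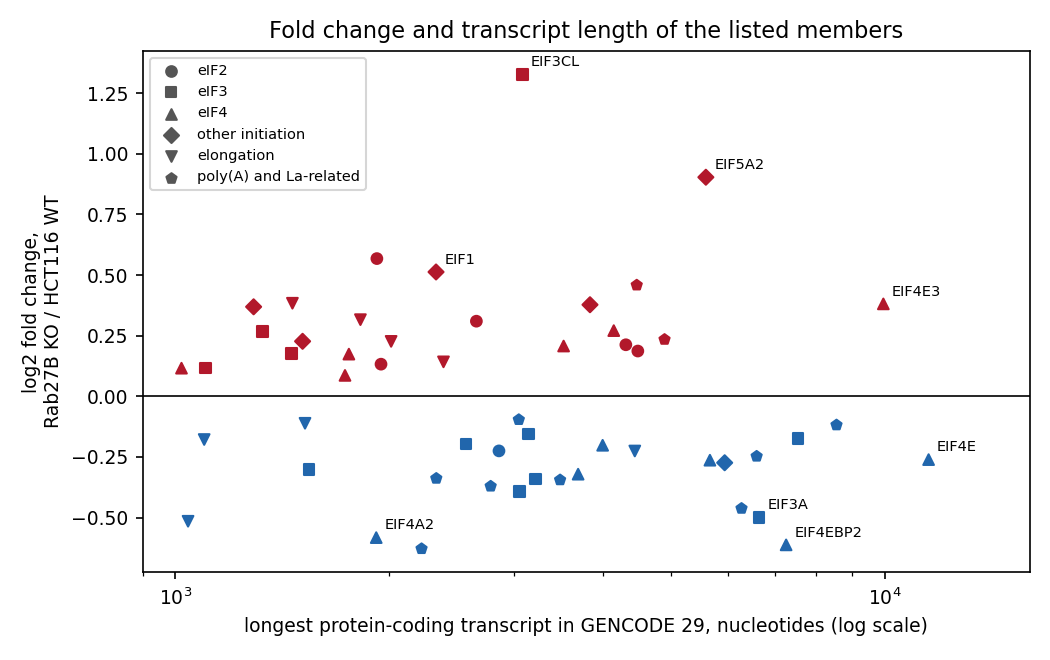
Log2 fold change (y axis), Rab27B KO over wild type, against the length in nucleotides of the longest protein-coding GENCODE release 29 transcript (x axis, log scale) for the 53 members, with a marker shape per role, red for higher and blue for lower. Of the members under 2000 nucleotides 12 are higher and 5 lower, and of those from 2000 upwards most are lower.

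The regulators of eIF2 were all listed, in both directions. Of 13 kinases, phosphatase subunits and their partners, 7 were higher (53.8%) and 6 lower, a split near the 50.7% of all listed genes that were higher. Of all RefSeq protein-coding genes 37.9% were listed, a share whose base includes genes silent in these cells. The kinase genes EIF2AK1 (HRI, which senses heme), EIF2AK2 (PKR, which senses double-stranded RNA) and EIF2AK4 (GCN2, which senses uncharged transfer RNA) had log2 fold changes of -0.40, -0.35 and -0.30 per the authors' deposited table. EIF2AK3 (PERK, of the endoplasmic reticulum) was higher, at 0.36 (q = 0.000551) per the authors' deposited table. EIF2AK3 and EIF2AK4 were named after their values were seen, to complete the family. PPP1R15A (GADD34), the stress-induced subunit that directs the phosphatase to eIF2, was 1.62-fold higher (q = 2.45e-28) and GCN1, the partner of GCN2, lower at -0.32 (q = 1.32e-19) per the authors' deposited table.

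The mTORC1 and eIF4F control genes were listed with 5 higher and 9 lower of 17, so that 35.7% of those listed were higher, against 50.7% of all listed genes. PDCD4, an inhibitor of eIF4A, had a log2 fold change of -0.78 (q = 8.09e-19) and GIGYF1, a partner of EIF4E2, one of -0.68 (q = 2.03e-28) per the authors' deposited table. GIGYF2, a related partner, was lower at -0.34 (q = 5.81e-10) per the authors' deposited table. MKNK1, a kinase that phosphorylates eIF4E, was 1.41-fold higher (q = 6.58e-11) per the authors' deposited table.

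Of 16 genes of ribosome recycling, rescue and re-initiation, 3 were higher and 4 lower. The 43.8% listed and the 42.9% of these that were higher lie near the 37.9% and 50.7% over all genes. BZW2, a mimic of eIF5, had a log2 fold change of -0.90 (q = 3.44e-78) and ABCE1, which splits ribosomes after termination, one of -0.46 (q = 3.05e-24) per the authors' deposited table. GTPBP2, a factor for stalled ribosomes, was higher at 0.60 (q = 3.86e-14) per the authors' deposited table. Of 10 initiation helicases and partners of the small subunit, 1 was higher and 4 were lower (20.0% higher, against the same 50.7%), with NAT10, an RNA acetyltransferase, at -0.70 (q = 5.81e-55) per the authors' deposited table.

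Cytosolic ribosomal protein genes were listed mainly as lower. Of 87 genes 12 were higher and 32 lower, so that 27.3% of the listed ones were higher, against 49.1% of the translation factors and 50.7% of all listed genes. With the ratio turned round, 72.7% of them would be higher. Their median log2 fold change was -0.15. RPS3A and RPL34 were the members with the smallest q-values, at -0.46 and -0.53 per the authors' deposited table. The difference between the 2 classes was not tested.

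**Figure D5:**
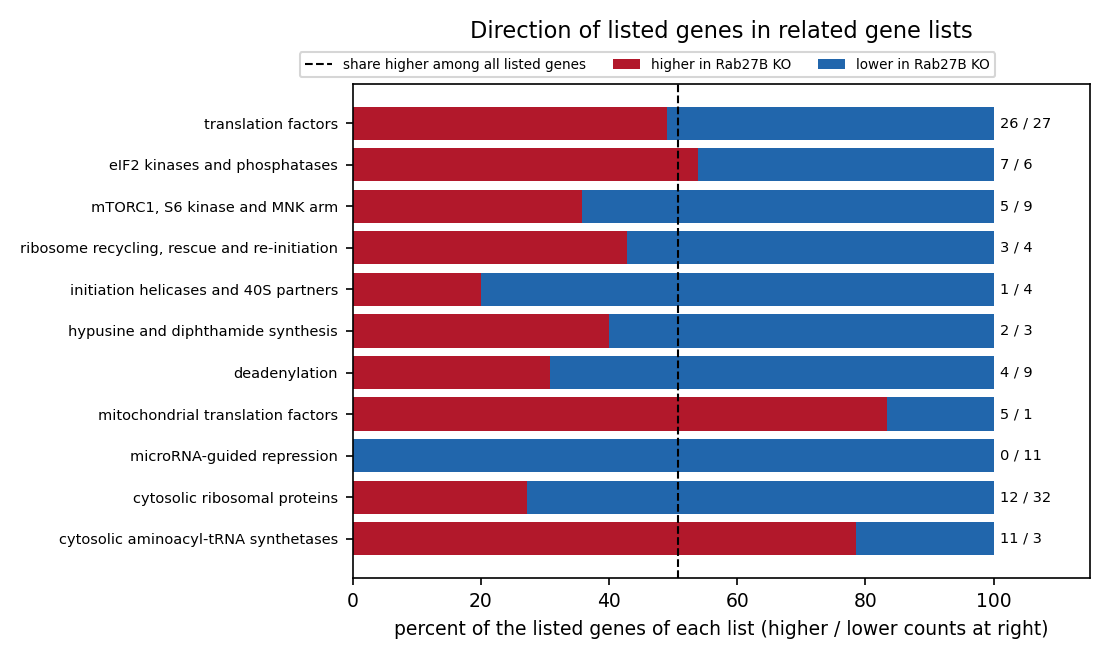
Share of listed genes that were higher (red) or lower (blue) in the cultures labelled Rab27B KO (x axis, percent), for the translation factors and 10 related gene lists (y axis), with the counts of higher and lower genes at the right. The dashed line marks the 50.7% of all listed genes that were higher; the translation factors lie at 49.1% and the ribosomal proteins at 27.3%. The lists were chosen with earlier results of these data known.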

How the data were processed

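RNA was extracted with a column kit and sequenced on the DNBSEQ platform, per the labels' protocols. The submitters' processing notes name HISAT, Bowtie2 and GRCh38. Counting, scaling between samples and the test used are steps not given in the sources used here. Per the file headers, the deposited values are log2 fold changes of Rab27B KO over wild type and q-values, and the table of higher genes adds the linear ratio that the authors deposited beside the log2 value. No test was added. The depth is unknown, so no intervals are given.

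Members were found by symbol, and all 53 gene IDs matched the RefSeq table (GRCh38.p14). Overall 7656 of 7681 IDs matched it. Every listed member may be named. Of each related list up to 4 genes with the smallest q-values, and the lowest in the minority direction, may be named. Members and lists were chosen with earlier results of these data known. Transcript lengths come from GENCODE release 29, matched by gene ID. Coding sequences were aligned globally (match 1, mismatch -1, gap opening -5, gap extension -0.5). The counting and tract functions were tested on simulated data. Alternatives were q-values under 0.01, absolute log2 changes of 0.5 or more, leaving out 4 chromosomes, matching by gene ID, and leaving out near-identical copies. The 4 chromosomes were those singled out for low shares of higher genes in these data. Python 3.11.15, pandas 2.3.3, Biopython 1.88 and matplotlib 3.10.9 were used.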

Additional observations from a re-analysis of the deposited data

How the results depend on the processing

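Counts by direction were unchanged when members were matched by gene ID. They stayed within 1.5 times of the values above at a q-value below 0.01 (22 members higher, 24 lower), without chromosomes 4, 7, 13 and 15 (24 and 22) and without near-identical copies (24 and 27). That last setting changed the higher count only. EIF3C, whose value is uncertain, was still among the 7 lower eIF3 genes. At a log2 change of at least 0.5 few genes were left: 4 members higher and 4 lower, with 1 higher and 0 lower in the eIF2 group, 1 and 0 in the eIF3 group, 0 and 2 in the eIF4 group, and 0 and 1 in the elongation group. That cut kept 15.1% of the members, against 38.7% of all listed genes. The median log2 fold change of the members was -0.10 over all, and 0.10 without the 4 chromosomes. No member lay between PABPC4 at -0.10 and EIF4A3 at 0.09. The median of so even a split lies at the edge of that gap, on the side with more genes. Its change of sign therefore follows the counts (26 higher and 27 lower, then 24 and 22). Without the 4 chromosomes the eIF3 group held 4 higher and 5 lower genes. No paired analysis was possible because the tables carry no values per sample, and leaving out a replicate was not run for the same reason. A change within the 3 samples of a label cannot be seen, and the abundance behind a fold change is unknown.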

Other observations

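Genes that act on the messenger RNA through the poly(A) tail and microRNAs were also listed. All 11 listed genes of 17 in microRNA-guided repression and decapping were lower, against 49.3% of all listed genes. This list, like the other related lists, was chosen with earlier results of these data known, and its split was not tested. AGO4 had a log2 fold change of -0.82 (q = 6e-11), the decapping activator gene DDX6 one of -0.47 (q = 7.16e-22) and the scaffold gene EDC4 one of -0.42 (q = 3.06e-17) per the authors' deposited table. Of 18 deadenylation genes 4 were higher and 9 lower (69.2% lower, against the same 49.3%). The CCR4-NOT subunit genes had 1 higher and 7 lower members, with CNOT6 at -0.55 per the authors' deposited table. Of 4 genes of the anti-proliferative adaptors that recruit this complex 3 were higher and 1 was in neither table, with TOB1 at 0.74 (q = 2.96e-47) and BTG2 at 0.66 per the authors' deposited table.

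Of 20 cytosolic aminoacyl-tRNA synthetases, which charge transfer RNA, 11 were higher and 3 lower. That is 70.0% listed, against 37.9% of all protein-coding genes, a base that includes genes silent in these cells. Of those listed 78.6% were higher, against 50.7% of all listed genes. AARS1 and WARS1 were 1.42-fold and 1.41-fold higher, whereas VARS1 had a log2 fold change of -0.30 per the authors' deposited table. Of 10 mitochondrial translation factors 5 were higher and 1 lower (83.3% higher, against the same 50.7%), with the mitochondrial elongation factor gene TUFM at 0.18 (q = 5.7e-07) and the initiation factor gene MTIF2 at -0.22 (q = 0.0183) per the authors' deposited table. None of these splits was tested.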
